A study of Mus musculus with 15 samples.

Results

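CD4+ and CD8+ T cells that did not stain for active caspase-1 were compared with each other on day 7 of acute graft-versus-host disease (aGvHD). The comparison covers 6 of the 15 libraries of the series, 3 of CD4+ Flica-negative cells and 3 of CD8+ Flica-negative cells, chosen by their labels alone. The Flica probe fluoresces in cells with active caspase-1, so Flica-negative cells are those the sort placed below its staining gate. Wild-type C57Bl6 T cells were given with bone marrow to irradiated Balb/C recipients, and spleen cells of several diseased mice were pooled before they were sorted, so a library stands for a pool and not for an animal. The labels call the 3 libraries of a group biological replicates. The most alike comparison, between 3 CD4+ and 3 CD8+ libraries of Flica-negative control cells on day 0, came from C57Bl6 mice without transplant. Donors and recipients were 6 to 8 weeks old. Fewer control mice than diseased mice went into a sort. Day 0 and day 7 therefore differ in transplantation, in irradiated host, in time and in mice per sort at once, and these cannot be told apart.

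CD4+ T cells recognise peptides on MHC class II and act mostly by helping other cells, through CD40 ligand and secreted cytokines. CD8+ T cells recognise peptides on MHC class I and kill target cells with perforin and granzymes. In aGvHD both lineages of donor T cells are activated by recipient tissue, divide and enter the spleen, gut, liver and skin. The factor ThPOK, encoded by Zbtb7b, upholds the CD4 programme, and RUNX3 upholds the CD8 programme.

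Counts were divided by the authors' size factors and are called normalised counts. Fold changes are coded CD4 minus CD8, so that a positive log2 fold change stands for more RNA in CD4+ cells. Genes were tested with edgeR (quasi-likelihood test, p adjusted by Benjamini and Hochberg's method) and called at an adjusted p below 0.05. Only genes that the authors had listed as changed in at least 1 of 4 other comparisons of the same libraries could be analysed, 4567 genes in all, and 4241 of them had enough counts for the day 7 test. Those comparisons listed 2069 genes for CD4+ cells and 2496, 3461 and 972 for CD8+ cells, so the selection drew more on CD8+ cells. In bulk RNA, fewer cells of a type and less RNA per cell cannot be told apart. Over the listed genes a library held between 2459947 and 3184674 counts in CD4+ cells and between 2503052 and 3147466 in CD8+ cells, which are sums over selected genes and not library depths.

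On day 7, 964 of 4241 genes differed between CD4+ and CD8+ Flica-negative cells, which is 22.7% of the genes tested. Of these, 428 (10.1%) were higher in CD4+ cells and 536 (12.6%) were higher in CD8+ cells. The split was 488 and 494 with TMM scaling of the counts, and 354 and 347 without CD8+ replicate 3. TMM scaling thus narrowed the gap without turning it, while which lineage had more calls depended on single libraries. The 2 groups did not overlap in 1685 genes (39.7%), with CD4+ above in 796 (18.8%) and CD8+ above in 889 (21.0%). These shares over all tested genes are the ground against which the list counts below are to be read. Differences of at least 2-fold were found in 742 called genes (341 higher in CD4+, 401 in CD8+) and of at least 4-fold in 344 (181 and 163). Genes higher in CD4+ cells differed by a median of 1.74 on the log2 scale and those higher in CD8+ cells by a median of -1.37, while the median over all tested genes was -0.12. Without CD4+ replicate 2 the number of called genes was 609.

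**Figure D1:**
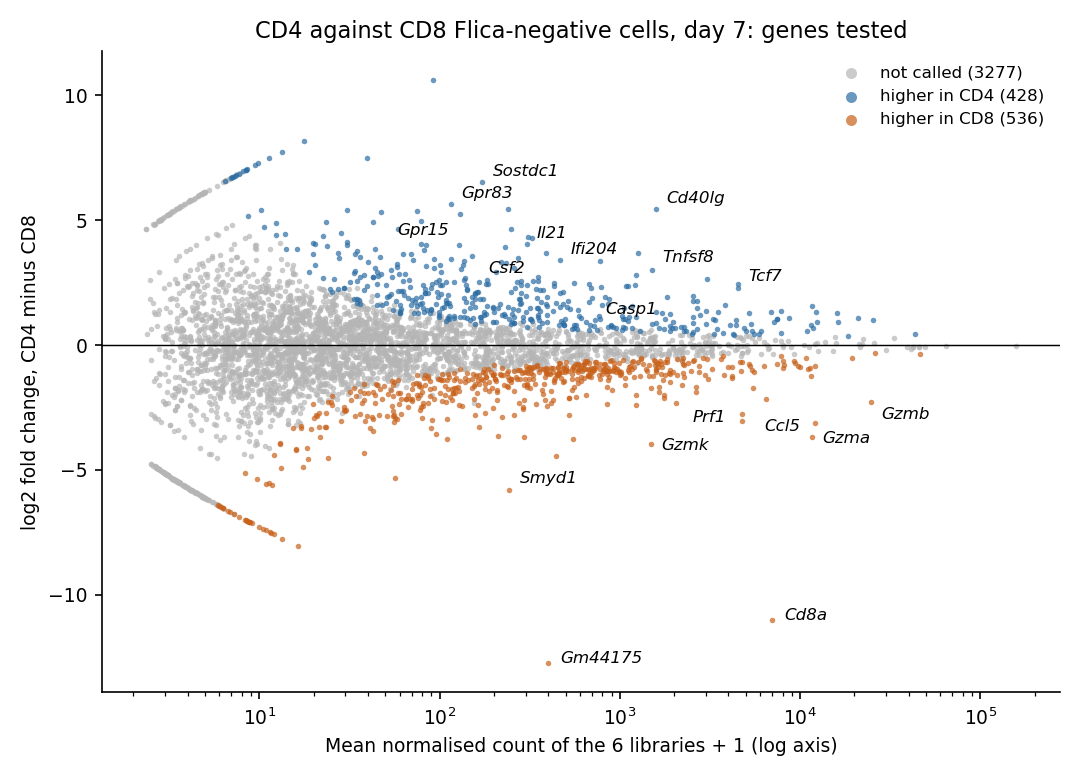
Log2 fold change (CD4 minus CD8) at day 7 against the mean normalised count of the 6 libraries plus 1 (log axis) for each of 4241 tested genes. Blue points (428) were called higher in CD4+ and orange points (536) higher in CD8+ cells, Cd8a and Gm44175 lie lowest, and the curved lines of points at the left edges are genes at 0 in all libraries of 1 group.

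The labels of the 6 libraries were checked on the lineage genes that could be analysed. Cd8a, which encodes the CD8 alpha chain, had 4.41, 4.46 and 10.4 normalised counts in the CD4+ libraries and 13841, 14967 and 12817 in the CD8+ libraries (log2 fold change -11.00, SE 0.27, adjusted p = 1.6e-12). Cd40lg, the ligand through which helper cells license B cells and dendritic cells, had 3509.7, 3300.2 and 2527 in CD4+ and 82.0, 69.0 and 64.7 in CD8+ cells (log2 fold change 5.44, SE 0.22, adjusted p = 8.4e-10). In both genes the 2 groups lay far apart, each in the direction of its label. Zbtb7b had 4113, 4070.3 and 3378 in CD4+ cells and 1919, 1745 and 1422 in CD8+ cells (log2 fold change 1.18, SE 0.16, adjusted p = 0.00012), so its groups did not overlap but its transcript was plentiful in CD8+ cells as well. All 4 tested genes of the CD4 lineage list were higher in CD4+ cells, the others being Icos (1.04) and the sialyltransferase gene St8sia6, which had 14.1, 22.3 and 6.41 in CD4+ cells and was at 0 in all CD8+ libraries, at least 5.03-fold higher. Cd4, Cd8b1, Runx3 and all 15 general T cell markers on the list, CD3 genes among them, were not analysed here.

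Markers of other cells moved with the lineage in the sorted pools. Of 16 markers of neutrophils and their precursors, 13 were higher in CD8+ cells and none in CD4+ cells (median log2 fold change -1.70), with 2597, 4333 and 6946 summed normalised counts in the CD4+ libraries and 11004, 16843 and 16952 in the CD8+ libraries. They included the granule enzyme genes Elane (-2.78), Prtn3 (-2.71), Mpo (-2.18) and Ctsg (-2.17), while Ly6g, Mmp8 and Mmp9 were not called. At day 0 the same 16 genes summed to at most 146 in any library. The MHC class II genes H2-Aa (-1.76), H2-Eb1 (-2.39), H2-Ab1 (-1.46) and Cd74 (-0.83), which antigen-presenting cells use, were also higher in CD8+ cells. With Itgax they made up the 5 of 7 tested dendritic cell markers higher in CD8+ cells, and that list summed to 1430 to 2106 in CD4+ and 8222 to 11601 in CD8+ libraries. Itgax, which activated CD8+ cells express as well, gave the largest part of that sum in each day 7 library. On day 0 the list summed to 11469 to 15789 in CD4+ and 11068 to 16214 in CD8+ libraries. Of 9 tested B cell markers Cd22 was higher in CD4+ cells and Cd79b and Igkc in CD8+ cells, while the defining marker Ms4a1 was at 0 in every day 7 library and the list summed to between 631 and 1193. On day 0 that B cell list summed to far more, 10238 to 13464 in CD4+ and 10073 to 14552 in CD8+ libraries. Among NK cell markers Ncr1 and Klra8 were too low to be tested, and Klrb1c, Tyrobp and Fcer1g, the 3 that were tested, were higher in CD8+ cells, with list sums of 247 to 463 in CD4+ and 1467 to 1528 in CD8+ libraries. Of 11 macrophage markers 1, Lyz2 (-1.81), was called and higher in CD8+ cells, as was 1 of 3 plasma cell markers, Jchain (-3.43). No tested marker of erythroid cells (9), mast cells and basophils (5), megakaryocytes (3) or gamma delta and innate-like T cells (3) was called by edgeR or by DESeq2, and 0 of them had an unadjusted p below 0.05. The part of these other cells in the results below was not tested. With the members of the marker lists of cells other than T and NK cells left out of the test, an alternative chosen after the data were seen, 937 of 4178 genes were called, which leaves any RNA of such cells in the other genes in place.

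**Figure D2:**
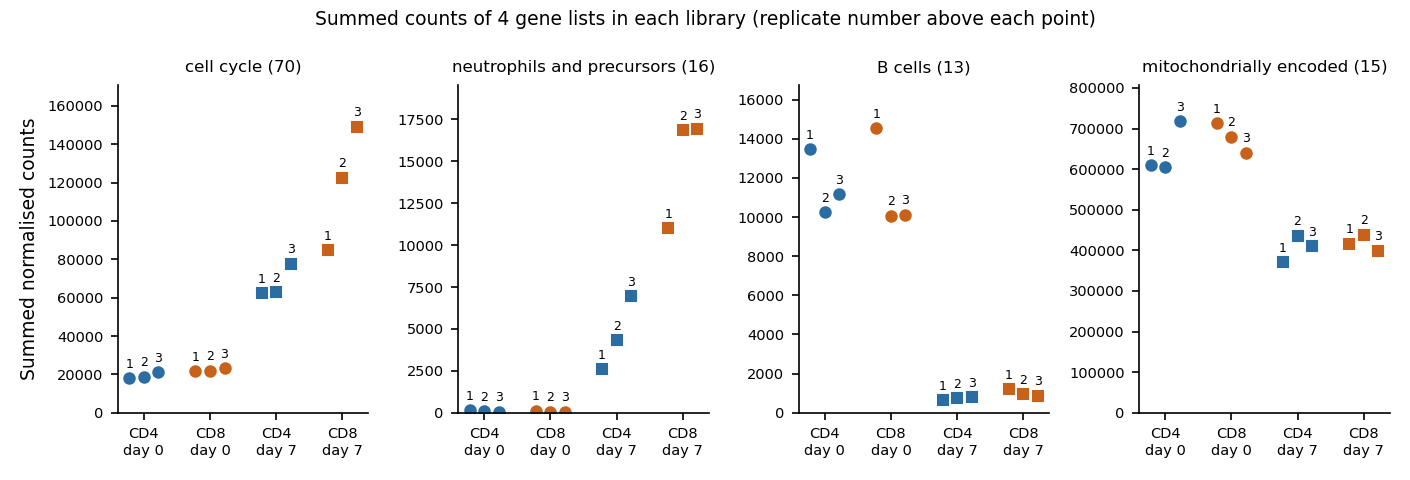
Summed normalised counts of the cell cycle, neutrophil, B cell and mitochondrially encoded lists in each library of CD4+ (blue) and CD8+ (orange) cells on day 0 (circles) and day 7 (squares), with the number of listed members in parentheses. On day 7 the neutrophil sums were 2597 to 6946 in CD4+ and 11004 to 16952 in CD8+ libraries, and mitochondrial sums overlapped.

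Among called genes with a mean of at least 100 normalised counts and no overlap of the groups, Cd8a, Gm44175 and Smyd1 had the largest differences toward CD8+ cells. Gm44175, for which no annotation was used here, was at 0 in all 3 CD4+ libraries and had 800.1, 979 and 601 normalised counts in CD8+ cells, at least 289-fold higher against a floor of 3 counts per library. Smyd1, a histone methyltransferase gene best known from muscle, had 0, 11.2 and 14.4 in CD4+ cells and 478, 467 and 485 in CD8+ cells (log2 fold change -5.79, SE 0.60, adjusted p = 1.0e-05). Smyd1 (chr6:71213940-71262281), Cd8b1 (chr6:71322788-71337492) and Cd8a (chr6:71373427-71379171) lie in that order on chromosome 6 of GRCm38.p6 in the RefSeq gene table. Adgrg1, an adhesion G protein-coupled receptor of cytotoxic lymphocytes, had 32.6, 27.9 and 55.3 in CD4+ and 906, 866 and 769 in CD8+ cells (log2 fold change -4.44, SE 0.30, adjusted p = 1.9e-07). The other genes with the largest differences in this direction were Gzmk, Faxc (-3.77), Wdr95 (-3.74), Heatr9 (-3.67), Gzma, Cd244a, the ephrin receptor gene Epha3 (-3.30) and Ccl5.

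Toward CD4+ cells Sostdc1 was among the genes with the largest differences. Sostdc1, a secreted antagonist of BMP and Wnt signals, had 133, 365 and 517 in CD4+ cells and 7.46, 3.73 and 0 in CD8+ cells (log2 fold change 6.53, SE 0.71, adjusted p = 1.8e-05). Coro2b, a coronin of the actin cytoskeleton, had 413, 411 and 576 in CD4+ and 7.46, 13.1 and 11.2 in CD8+ cells (log2 fold change 5.44, SE 0.36, adjusted p = 1.4e-07). Matn2, which encodes the matrix protein matrilin 2, had 534, 481 and 418 in CD4+ and 14.9, 28.9 and 13.8 in CD8+ cells (log2 fold change 4.63, SE 0.36, adjusted p = 6.1e-07). Genes of both rankings, also where named below, were required not to overlap between the groups, which held for 39.7% of all tested genes. Gpr83 (5.64), Cd40lg, A630023P12Rik (5.26), Gm10499 (4.32), the ganglioside sialyltransferase gene St8sia1 (4.28), Il21, the gut homing receptor gene Gpr15, Ramp3 (3.91) and Asb2 (3.70) completed the 12 genes with the largest difference in this direction. Scin, which encodes an actin-severing protein and was named after its values were seen because its mean lay below 100, had 212, 173 and 160.2 in CD4+ cells and was at 0 in all 3 CD8+ libraries, at least 63.9-fold higher.

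Most of the called cytotoxic effector genes were higher in CD8+ cells. Of 17 tested members 10 were higher in CD8+ cells and 1 in CD4+ cells (median log2 fold change -0.67). Gzma, which encodes granzyme A, had 1427, 1818 and 1852 normalised counts in CD4+ cells and 18480, 23554 and 22593 in CD8+ cells (log2 fold change -3.66, SE 0.15, adjusted p = 8.4e-10). Gzmb, the caspase-activating granzyme, had 8309, 8169 and 8577 in CD4+ and 34448, 45578 and 42834 in CD8+ cells (log2 fold change -2.29, SE 0.12, adjusted p = 1.7e-08). Prf1, which encodes the pore protein perforin, had 1156, 1381 and 1144 in CD4+ and 7804, 9480.1 and 7700.5 in CD8+ cells (log2 fold change -2.76, SE 0.15, adjusted p = 2.3e-08). None of the 3 genes overlapped between the lineages, and all 3 were also detected in every CD4+ library. Gzmk had 179, 181 and 183 in CD4+ and 2403, 3576 and 2405 in CD8+ cells (log2 fold change -3.95, SE 0.21, adjusted p = 2.3e-08). The granule membrane gene Nkg7 (-0.96, SE 0.13, adjusted p = 9.5e-05), the lymphocyte cathepsin gene Ctsw (-0.83, SE 0.13, adjusted p = 0.00042) and Slamf7, Cst7, Serpinb6b and Serpinb9 were higher in CD8+ cells by less than 2-fold. Srgn, which encodes the granule proteoglycan serglycin, was the member higher in CD4+ cells, with 14435, 15308 and 13796 against 8768, 8773 and 7568 (log2 fold change 0.79, SE 0.12, adjusted p = 0.0002). The genes Gzmc, Gzmf, Gzmm, Fasl, Serpinb9b and Rab27a were not called. Granzyme genes share sequence, so reads could have been split between close copies such as Gzmc and Gzmf.

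Promoter windows of the perforin gene and the 3 called granzyme genes are shown because they encode the lytic granule proteins of cytotoxic cells. The windows run from 250 bases before to 50 bases after the start site in RefSeq (GRCm38.p6), and capitals mark the letters TGTGGT or, on the other strand, ACCACA, the core that RUNX factors bind.
Gzma, chr13:113100932-113101231, minus strand, 1 match at -50: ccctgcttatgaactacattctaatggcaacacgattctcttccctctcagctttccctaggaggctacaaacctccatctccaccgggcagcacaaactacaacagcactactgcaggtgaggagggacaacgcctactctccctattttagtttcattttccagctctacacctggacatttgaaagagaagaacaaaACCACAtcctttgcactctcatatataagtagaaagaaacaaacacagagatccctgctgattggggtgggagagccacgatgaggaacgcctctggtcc
Gzmb, chr14:56262285-56262584, minus strand, 2 matches at -93 and -34: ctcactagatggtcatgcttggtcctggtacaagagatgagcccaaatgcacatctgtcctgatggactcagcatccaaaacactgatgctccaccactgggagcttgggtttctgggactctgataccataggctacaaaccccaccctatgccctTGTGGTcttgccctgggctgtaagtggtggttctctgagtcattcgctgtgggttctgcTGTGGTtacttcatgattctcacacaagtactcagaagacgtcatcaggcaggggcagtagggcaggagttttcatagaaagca
Gzmk, chr13:113180916-113181215, minus strand, no match: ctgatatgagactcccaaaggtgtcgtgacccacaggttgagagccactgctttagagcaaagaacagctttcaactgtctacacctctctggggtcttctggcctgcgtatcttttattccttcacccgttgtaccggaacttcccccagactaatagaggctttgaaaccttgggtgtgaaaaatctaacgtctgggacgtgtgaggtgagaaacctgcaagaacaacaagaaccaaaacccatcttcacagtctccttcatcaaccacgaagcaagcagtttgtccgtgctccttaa
Prf1, chr10:61297586-61297885, plus strand, 1 match at -130: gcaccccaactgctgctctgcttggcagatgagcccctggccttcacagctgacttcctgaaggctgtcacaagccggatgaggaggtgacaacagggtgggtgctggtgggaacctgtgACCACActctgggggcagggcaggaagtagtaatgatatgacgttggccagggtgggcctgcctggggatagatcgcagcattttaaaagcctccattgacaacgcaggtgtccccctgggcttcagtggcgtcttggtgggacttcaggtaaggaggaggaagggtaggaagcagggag
These 6 letters occurred on either strand in 16.8% of all 32851 promoter windows in the table and in 16.4% of 3232 windows of tested genes. Windows of genes higher in CD4+ cells held them in 14.6% of 378 cases and windows of genes higher in CD8+ cells in 18.8% of 473 cases. Among tested cytotoxic effectors 11 of 19 windows (57.9%) held them, in 11 of 16 genes with an entry. That was 6 of the 9 such genes higher in CD8+ cells and 5 of the 7 that were not. The motif was chosen after the windows had been seen, windows of close granzyme copies share sequence, and a match is not evidence of binding.

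Receptors first known from NK cells were higher in CD8+ cells. These receptors, many of the killer cell lectin-like family, tune the killing threshold of cytotoxic cells. Of 24 listed members 19 could be tested, and 13 were higher in CD8+ cells and none in CD4+ cells (median log2 fold change -2.08). Cd244a, which encodes the SLAM receptor 2B4, had 22.9, 3.35 and 63.3 in CD4+ cells and 341, 444 and 378 in CD8+ cells (log2 fold change -3.66, SE 0.59, adjusted p = 0.00049). Cd160, a receptor of cytotoxic lymphocytes that binds HVEM, had 225, 316 and 284 in CD4+ and 1303, 1517 and 1425 in CD8+ cells (log2 fold change -2.37, SE 0.21, adjusted p = 2.2e-06). Klrb1b, an inhibitory C-type lectin receptor, had 105, 113 and 147 in CD4+ and 527, 687 and 778 in CD8+ cells (log2 fold change -2.45, SE 0.26, adjusted p = 1.5e-05). The lineages were apart in all 3, although Cd244a varied widely between the CD4+ libraries. Klrk1, which encodes NKG2D, was higher in CD8+ cells (-2.34), and so were Klrc1 (-1.72), Klrc2 (-1.26), Klrc3 (-1.33), Klrg1 (-1.11) and Klrd1 (-0.55). The signalling adaptors of several of these receptors, Tyrobp (-2.47, SE 0.48, adjusted p = 0.002) and Fcer1g (-2.34), are also expressed in myeloid and NK cells. Klrh1 (-3.33, SE 1.11, adjusted p = 0.043) had at most 6.17 normalised counts in a CD4+ library.

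**Figure D3:**
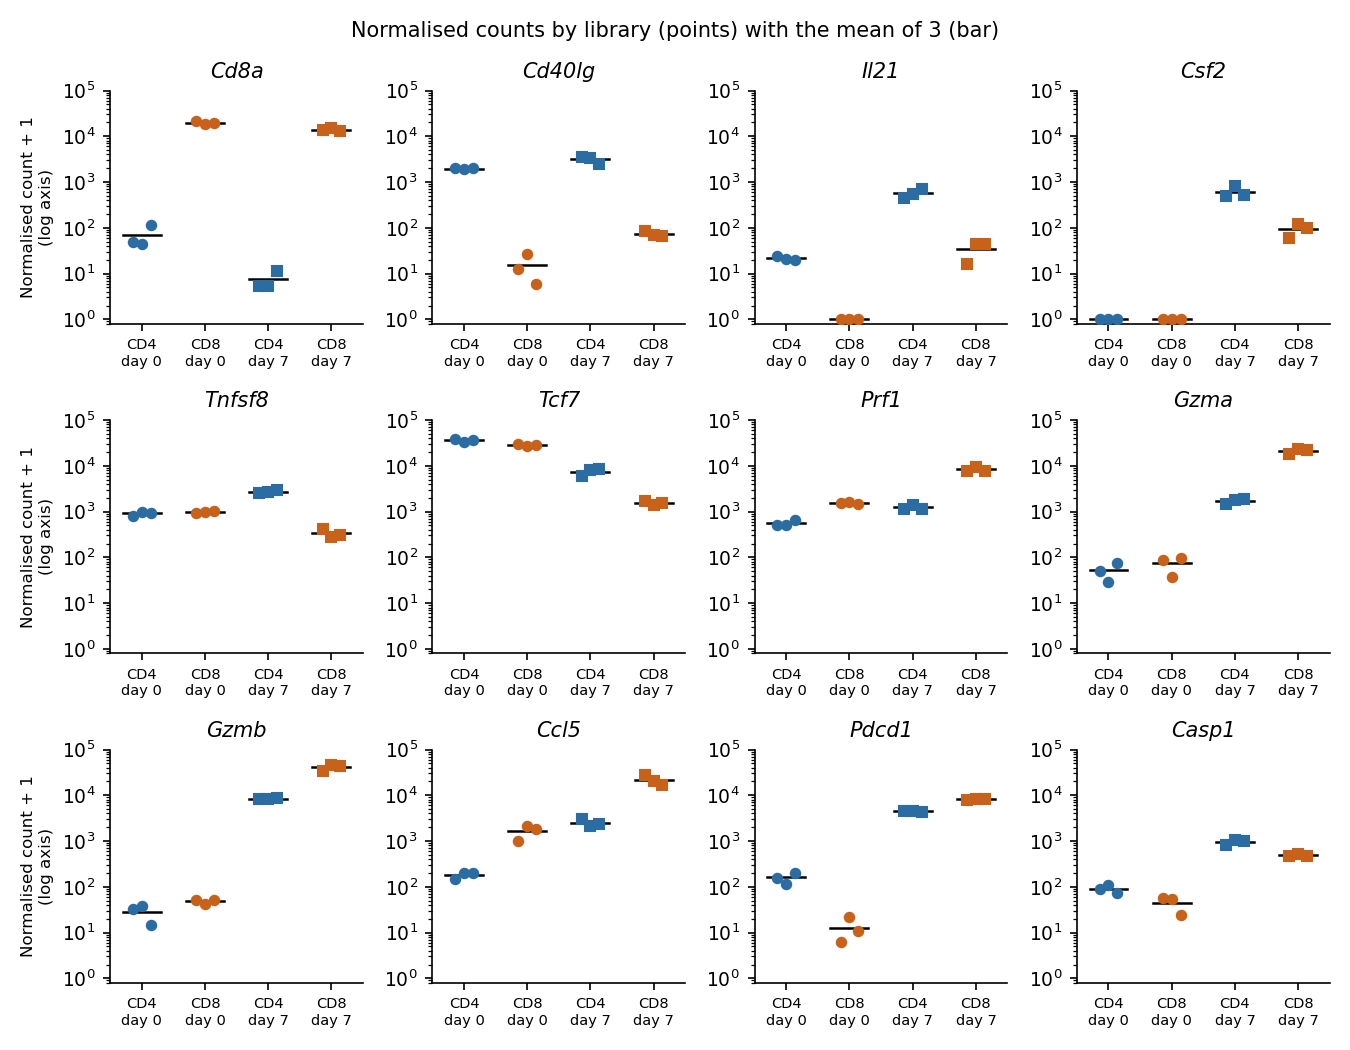
Normalised count plus 1 (log axis) of 12 genes in each library of CD4+ (blue) and CD8+ (orange) cells on day 0 (circles) and day 7 (squares), with the mean of 3 libraries as a bar. On day 7 the lineages did not overlap in any of the 12 genes, and Gzma and Gzmb were near 100 counts or below in all day 0 libraries.

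Cytokines favoured CD4+ cells. Of 18 tested helper and effector cytokines 11 were higher in CD4+ cells and none in CD8+ cells (median log2 fold change 1.62). Il21, the follicular helper cytokine that drives B cell responses, had 451, 547 and 715 in CD4+ cells and 14.9, 43.9 and 44.0 in CD8+ cells (log2 fold change 4.04, SE 0.39, adjusted p = 4.8e-06). Csf2, which encodes GM-CSF, had 499, 807 and 527 in CD4+ and 59.7, 119 and 98.4 in CD8+ cells (log2 fold change 2.72, SE 0.32, adjusted p = 3.2e-05). Tnfsf8, which encodes CD30 ligand, had 2485, 2612 and 2938 in CD4+ and 412, 282 and 312 in CD8+ cells (log2 fold change 3.00, SE 0.20, adjusted p = 1.4e-07). For each of these cytokines every CD4+ library lay above every CD8+ library. Lta (2.99, SE 0.49, adjusted p = 0.00051) and the enkephalin precursor gene Penk (4.14, SE 0.91, adjusted p = 0.0047) were higher in CD4+ cells at lower counts, and Tgfb3, Lif, Csf1, Areg, Il10 and Tnfsf9 were higher too. Ifng, the main cytokine of type 1 responses, had 4650.5, 4536 and 4616 in CD4+ and 5207, 4741 and 4357 in CD8+ cells (log2 fold change -0.05, SE 0.13, adjusted p = 0.82), and its groups overlapped. Il13, Il17a, Osm, Spp1, Tnfsf13b and Tnfsf14 were not called either.

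Follicular helper genes lay on the same side. These genes mark the CD4+ cells that sit in B cell follicles. Of 10 tested members 8 were higher in CD4+ cells and 1 in CD8+ cells (median log2 fold change 1.70). Maf, a transcription factor of Il21 and Il10, had 8298, 7079 and 7571 in CD4+ cells and 1657, 1321 and 1243 in CD8+ cells (log2 fold change 2.44, SE 0.15, adjusted p = 9.1e-08). Cxcr5, the receptor that leads cells into follicles, had 257, 485 and 621 in CD4+ and 109.7, 109 and 102 in CD8+ cells (log2 fold change 2.09, SE 0.32, adjusted p = 0.00036). Icos (1.04, SE 0.13, adjusted p = 4.2e-05), Angptl2 (1.74, SE 0.31, adjusted p = 0.001), Cebpa (1.67) and Tox2 (1.17) were also higher. Pdcd1 stood on the other side, with 4594, 4599 and 4269 in CD4+ cells and 8024, 8221 and 8133 in CD8+ cells (log2 fold change -0.86, SE 0.12, adjusted p = 0.00015). Bcl6, the defining factor of this subset, was not analysed here.

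Genes known from regulatory T cells were higher in CD4+ cells in 6 of 12 tested cases and higher in CD8+ cells in none (median log2 fold change 0.88). Gpr83 had 268, 269 and 136 in CD4+ cells and 2.13, 5.60 and 5.18 in CD8+ cells (log2 fold change 5.64, SE 0.50, adjusted p = 2.2e-06). Izumo1r, which encodes folate receptor 4, had 268, 483 and 443 in CD4+ and 40.5, 16.8 and 63.0 in CD8+ cells (log2 fold change 3.30, SE 0.43, adjusted p = 7.7e-05). Tnfrsf4, which encodes OX40 and is also a receptor of activated helper cells, had 1850.5, 2315 and 2274 in CD4+ and 199, 351 and 364 in CD8+ cells (log2 fold change 2.81, SE 0.24, adjusted p = 1.6e-06). None of these overlapped between the lineages. Ebi3 (2.45, SE 0.37, adjusted p = 0.00027), Il10 (1.21, SE 0.30, adjusted p = 0.009) and Il2ra (0.55) were called as well, while Ctla4 (-0.07), Tigit (0.11), Nrp1, Itgb8, Capg and Tnfrsf9 were not. Foxp3 was not analysed here.

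Cytokine receptors were higher in CD4+ cells in 14 of 26 tested cases and higher in CD8+ cells in 3 (median log2 fold change 0.50). Il6ra, the IL-6 receptor alpha chain, had 1219, 1551 and 1459 in CD4+ cells and 104, 129 and 182 in CD8+ cells (log2 fold change 3.34, SE 0.25, adjusted p = 4.1e-07). Il1r1, the signalling IL-1 receptor, had 215, 159.6 and 233 in CD4+ and 16.0, 53.2 and 36.2 in CD8+ cells (log2 fold change 2.52, SE 0.42, adjusted p = 0.00066). The lineages did not overlap for either receptor. Il9r (5.41, SE 0.97, adjusted p = 0.0011), Tgfbr3 (3.05, SE 0.43, adjusted p = 0.00015), Ifngr2 (2.38, SE 0.45, adjusted p = 0.0016), Il17rb, Il4ra, Il7r, Il1rl1, Acvr1b, Il27ra, Il12rb2, Il12rb1 and Il2ra were higher in CD4+ cells too. The 3 genes higher in CD8+ cells were Csf2rb (-2.09, SE 0.43, adjusted p = 0.0031), Csf3r (-1.56, SE 0.51, adjusted p = 0.041) and Il3ra (-0.63, SE 0.21, adjusted p = 0.047), of which Csf3r, the G-CSF receptor, is on the neutrophil list. The IL-18 receptor genes Il18r1 (0.06) and Il18rap (0.02) were not called.

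Chemokines and trafficking receptors were divided, with 6 of 25 tested members higher in CD4+ cells and 7 in CD8+ cells (median log2 fold change -0.01, with a sign that changed between alternatives). Ccl5, a chemokine stored by cytotoxic cells, had 3094, 2104 and 2329 in CD4+ cells and 27476, 20869 and 16396 in CD8+ cells (log2 fold change -3.10, SE 0.19, adjusted p = 8.8e-08). Cx3cr1, the fractalkine receptor of effector cells with strong cytotoxicity, had 397, 467 and 312 in CD4+ and 2481, 2118 and 1608 in CD8+ cells (log2 fold change -2.40, SE 0.22, adjusted p = 3.3e-06). Neither gene overlapped between the lineages. The related chemokine genes Ccl4 and Ccl3 had log2 fold changes of -1.23 and -0.78. Ccl6 (-2.18, SE 0.44, adjusted p = 0.0025) and Cxcr2 (-2.60, SE 0.68, adjusted p = 0.012) were higher in CD8+ cells at low counts, and Cxcr2 is on the neutrophil list. On the CD4+ side Ccr7, the receptor for entry into lymph nodes, had 1050, 1298 and 1060.3 against 199, 154 and 276 (log2 fold change 2.44, SE 0.25, adjusted p = 9.0e-06). Gpr15 had 242, 336 and 143 in CD4+ and 12.8, 29.9 and 2.59 in CD8+ cells (log2 fold change 3.99, SE 0.61, adjusted p = 0.0003). Ccl1 (4.95, SE 0.69, adjusted p = 0.00014), its receptor gene Ccr8 (2.03, SE 0.34, adjusted p = 0.00067), Cxcr5 and Ccr9 (0.98, SE 0.32, adjusted p = 0.042) were higher in CD4+ cells as well. The inflammatory homing receptors Cxcr3 (-0.40), Cxcr6 (0.36), Ccr2 and Ccr6 were not called.

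Genes of naive and memory T cells were higher in CD4+ cells in 17 of 27 tested cases and higher in CD8+ cells in 2 (median log2 fold change 1.06). Tcf7, which encodes the stemness factor TCF1, had 5926, 8016 and 8511 in CD4+ cells and 1678, 1354 and 1537 in CD8+ cells (log2 fold change 2.30, SE 0.17, adjusted p = 3.2e-07). Igfbp4, an insulin-like growth factor binding protein of naive T cells, had 2304, 2944 and 1800.3 in CD4+ and 225, 104 and 226 in CD8+ cells (log2 fold change 3.67, SE 0.30, adjusted p = 1.0e-06). Neither gene overlapped between the lineages, and each had a lower mean on day 7 than on day 0 in both lineages, when Tcf7 was at 35867 ± 2437 (SD, n = 3) in CD4+ and 28613 ± 1437 (SD, n = 3) in CD8+ cells. Nsg2 (2.47, SE 0.27, adjusted p = 2.1e-05), Rgs10 (2.24, SE 0.26, adjusted p = 3.2e-05), Bach2 (2.20), Id3 (1.86), Il7r (1.37) and Satb1 (1.05) were higher in CD4+ cells, while Lef1, Foxo1, Klf3 and Cd44 were not called. Ly6c2 (-2.17, SE 0.15, adjusted p = 2.5e-07) and Ly6c1 (-1.46, SE 0.26, adjusted p = 0.00095), which encode Ly6C and whose reads can be split between them, were higher in CD8+ cells.

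Transcription factors of effector T cells were higher in CD4+ cells in 14 of 34 tested cases and higher in CD8+ cells in 5 (median log2 fold change 0.42). Ahr, the aryl hydrocarbon receptor, had 1981, 1909.6 and 1553 in CD4+ cells and 379, 367 and 311 in CD8+ cells (log2 fold change 2.37, SE 0.20, adjusted p = 1.2e-06). Egr3, a factor induced by the T cell receptor, had 804, 645 and 754 in CD4+ and 139.6, 104 and 148 in CD8+ cells (log2 fold change 2.49, SE 0.25, adjusted p = 7.1e-06). On the CD8+ side Zbtb32 had 468, 478 and 509 against 1864, 2218 and 1809.7 (log2 fold change -2.02, SE 0.18, adjusted p = 2.4e-06). No library of either lineage crossed the other in these 3 genes. Vdr (2.71, SE 0.55, adjusted p = 0.0026), Sox4 (1.92, SE 0.41, adjusted p = 0.0039), Atf3 (1.85), Fosb, Nr4a1 and Nr4a3 were higher in CD4+ cells, whereas the related gene Nr4a2 (-0.82, SE 0.14, adjusted p = 0.00066) was higher in CD8+ cells. Zeb2 (-1.57, SE 0.26, adjusted p = 0.00059), Irf8 (-1.23, SE 0.17, adjusted p = 0.00017) and Prdm1, which encodes BLIMP1 (-0.79, SE 0.16, adjusted p = 0.0027), were higher in CD8+ cells. Tbx21 (log2 fold change -0.44, SE 0.15, adjusted p = 0.053), Id2 (-0.02), Batf (0.40), Irf4 (-0.27) and Bhlhe40 were not called.

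Genes of the checkpoint and exhaustion list, most of them inhibitory receptors, divided in favour of CD8+ cells. There 5 of 12 tested members were higher against 2 in CD4+ cells (median log2 fold change -0.37). Lag3, a receptor for MHC class II, had 1888, 2418 and 3103 in CD4+ cells and 5744, 6225 and 5633 in CD8+ cells (log2 fold change -1.25, SE 0.17, adjusted p = 0.00013). Havcr2, which encodes TIM-3, had 1734, 1901 and 1743 in CD4+ and 3698, 4363 and 4275 in CD8+ cells (log2 fold change -1.20, SE 0.14, adjusted p = 4.2e-05). Both were apart in all libraries, as were Pdcd1, Cd160 and Cd244a. Cd200r1 (1.96, SE 0.29, adjusted p = 0.00026) and the PD-1 ligand gene Pdcd1lg2 (0.93, SE 0.25, adjusted p = 0.015) were higher in CD4+ cells. Ctla4, Tigit, Entpd1, Cd200r4 and Tnfrsf9 were not called. Costimulatory receptors and ligands were higher in CD4+ cells in 4 of 8 tested cases (Cd40lg, Cd70, Tnfrsf4 and Icos) and in CD8+ cells in 1 (Cd80, -0.74, SE 0.25, adjusted p = 0.044), with Cd70 at 3.07.

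Integrins and adhesion molecules showed 5 of 25 tested members higher in CD4+ cells and 8 in CD8+ cells. Over all tested genes 10.1% were called higher in CD4+ and 12.6% higher in CD8+ cells, and 39.7% did not overlap. Itgb1, the integrin beta 1 chain of migrating effector cells, had 29431, 28845 and 26958 in CD4+ cells and 16863, 13145 and 10200 in CD8+ cells (log2 fold change 1.08, SE 0.15, adjusted p = 0.00014). Itgax, which encodes CD11c and is expressed by dendritic cells as well as by activated CD8+ cells, had 1077, 1343 and 725 in CD4+ and 9556, 9238 and 6748 in CD8+ cells (log2 fold change -3.02, SE 0.22, adjusted p = 3.2e-07). Both genes kept the lineages apart in opposite directions. Itgad (-1.39, SE 0.34, adjusted p = 0.0091), Itgam (-1.15, SE 0.26, adjusted p = 0.0051), Cd24a (-1.55, SE 0.31, adjusted p = 0.0024), Cd63 (-2.80, SE 0.87, adjusted p = 0.031), Itga3, Itga1 and Alcam were higher in CD8+ cells. Itga9 (2.98, SE 0.69, adjusted p = 0.0066), Cd81 (1.54, SE 0.42, adjusted p = 0.016) and Itgb5 (1.52, SE 0.29, adjusted p = 0.0019) were higher in CD4+ cells. Itgae, the CD103 chain of naive and resident CD8+ cells, had 131, 165 and 131 in CD4+ and 127, 63.4 and 115 in CD8+ cells (log2 fold change 0.48, SE 0.35, adjusted p = 0.35) and was not called. Itgam, like Csf2rb, Naip5 and Hk3 elsewhere on the lists, is used by myeloid cells too, the neutrophil markers were higher on the same side, and their part in these 4 genes was not tested.

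**Figure D4:**
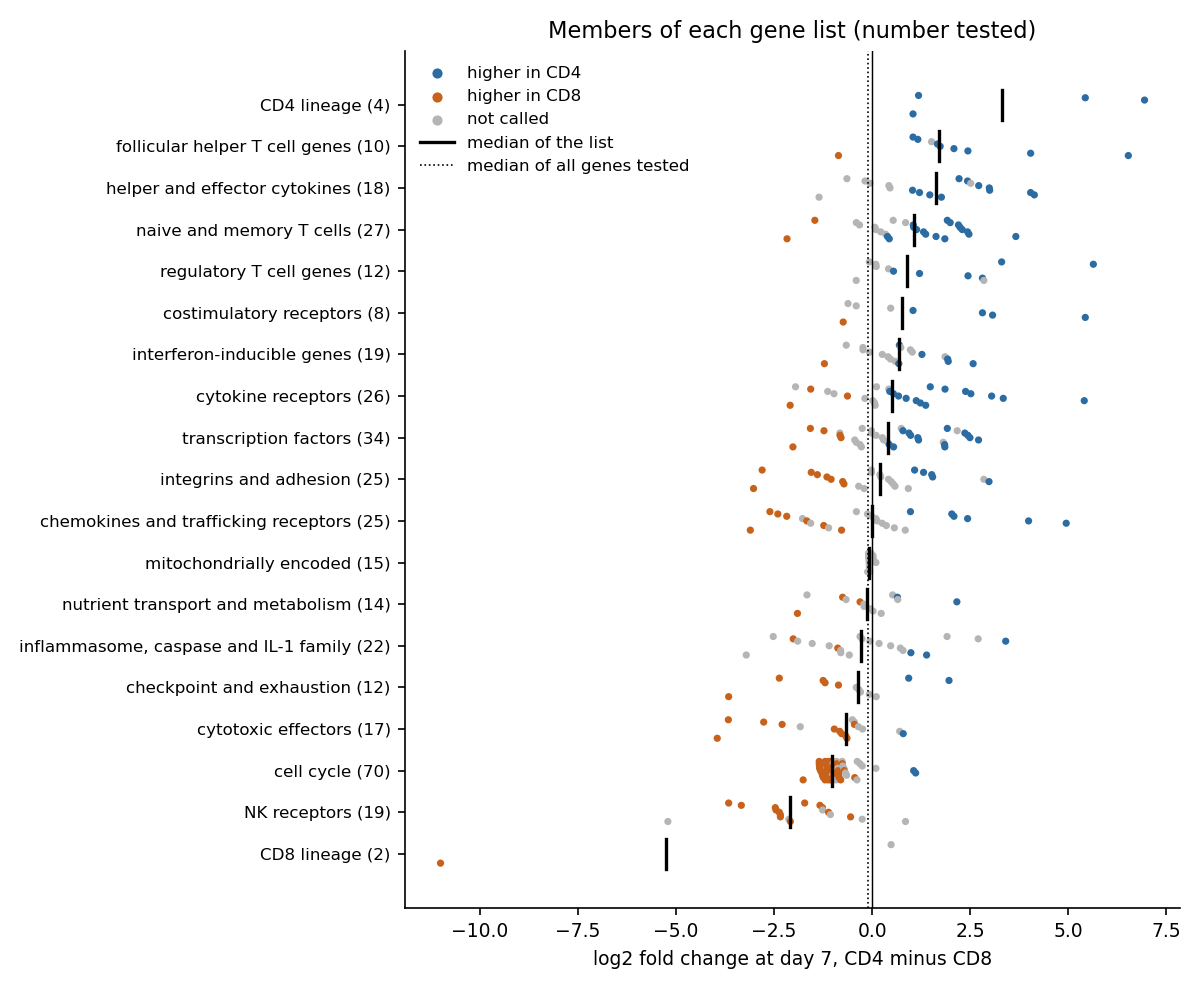
Log2 fold change (CD4 minus CD8) at day 7 of each tested member of 19 gene lists, with the number tested in parentheses. Blue and orange points were called higher in CD4+ and in CD8+ cells, black bars are list medians and the dotted line is the median of all genes tested, and the medians run from -5.26 (CD8 lineage, 2 genes) to 3.31 (CD4 lineage, 4 genes).

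Cell cycle genes were higher in CD8+ cells in 53 of 70 tested cases and higher in CD4+ cells in 2, with a median log2 fold change of -1.01. Their summed normalised counts were 62296, 62796 and 77617 in the CD4+ libraries and 84715, 122558 and 148985 in the CD8+ libraries, so the groups did not overlap but the CD8+ libraries differed widely among themselves. Mki67, the proliferation marker, had 6632, 6251 and 7997 in CD4+ cells and 8699, 13395 and 15258 in CD8+ cells (log2 fold change -0.84, SE 0.18, adjusted p = 0.0037). Top2a, which untangles replicated DNA, had 2391, 3199 and 3531 in CD4+ and 3506, 7578 and 7875 in CD8+ cells (log2 fold change -1.06, SE 0.25, adjusted p = 0.007). In both genes CD8+ replicate 1 lay nearest to the CD4+ libraries, and for Top2a it overlapped with them. The members with the largest differences were Exo1 (-1.76, SE 0.42, adjusted p = 0.0078), Cdkn3 (-1.35, SE 0.27, adjusted p = 0.0026), E2f7 (-1.35, SE 0.34, adjusted p = 0.011), Hmmr (-1.34, SE 0.25, adjusted p = 0.0016) and Brca1 (-1.34, SE 0.33, adjusted p = 0.01). The 2 members higher in CD4+ cells were Cdkn1a, which encodes the cell cycle inhibitor p21, with 1650.4, 1931 and 1462 against 460.2, 895 and 979 (log2 fold change 1.11, SE 0.25, adjusted p = 0.0055), and the D-type cyclin gene Ccnd2 (1.06, SE 0.15, adjusted p = 0.00015). Without CD4+ replicate 2, 17 members were called higher in CD8+ cells, and over all alternatives the number ran from 17 to 60 with a median that stayed between -1.24 and -0.74.

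Among inflammasome, caspase and IL-1 family genes, which bear on the caspase-1 activity that Flica reports, 3 of 22 tested members were higher in CD4+ cells and 2 in CD8+ cells (median log2 fold change -0.28), and the share called over all tested genes was likewise 22.7%. Casp1, the caspase of canonical inflammasomes, had 829.6, 1071 and 994 in CD4+ cells and 464, 521 and 472 in CD8+ cells (log2 fold change 0.99, SE 0.20, adjusted p = 0.0024). Casp4, which encodes caspase-11 of the non-canonical pathway, had 874, 788 and 878 in CD4+ and 284, 426 and 258 in CD8+ cells (log2 fold change 1.39, SE 0.24, adjusted p = 0.00071). Ifi204, a DNA sensor of the PYHIN family with close paralogs that can share its reads, had 853, 965 and 745 in CD4+ and 60.7, 103 and 77.7 in CD8+ cells (log2 fold change 3.41, SE 0.27, adjusted p = 7.6e-07). Transcripts of all 3 were thus higher in CD4+ cells in every library, among cells sorted as negative for the active enzyme. Naip5 (-2.01, SE 0.49, adjusted p = 0.009), a sensor of flagellin that has close copies in the genome, was higher in CD8+ cells at fewer than 100 counts. The other sensors and cytokines were low. Nlrp3 had 0, 3.35 and 10.4 in CD4+ cells and 14.9, 34.5 and 3.45 in CD8+ cells (log2 fold change -1.90, SE 1.29, adjusted p = 0.32), and Il1b had 11.5, 19.0 and 16.8 in CD4+ and 35.2, 26.1 and 39.7 in CD8+ cells (log2 fold change -1.09, SE 0.63, adjusted p = 0.23). Il18, Nlrc4, Nlrp1a, Nlrp1b, Nlrp12 and Mefv lay between 0 and 32.8 normalised counts in all 6 libraries and were not called, although Mefv was called without CD4+ replicate 2. Gsdmd, Pycard and Aim2 were not analysed here. The sign of the list median changed between alternatives (-0.53 to 0.21).

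Interferon-inducible genes were higher in CD4+ cells in 6 of 19 tested cases and higher in CD8+ cells in 1 (median log2 fold change 0.68). Ifitm3, an antiviral membrane protein gene, had 2744, 3159.6 and 2813 in CD4+ cells and 636, 822 and 810.4 in CD8+ cells (log2 fold change 1.94, SE 0.17, adjusted p = 2.3e-06). Iigp1, an interferon-induced GTPase gene, had 482, 638 and 568 in CD4+ and 57.5, 104 and 121 in CD8+ cells (log2 fold change 2.58, SE 0.30, adjusted p = 3.6e-05). Both were apart in every library, as were Ifitm2 (1.93, SE 0.22, adjusted p = 2.7e-05) and Ifitm1 (1.27, SE 0.21, adjusted p = 0.00049). Tgtp1 (0.70, SE 0.21, adjusted p = 0.03) can share reads with its near copy Tgtp2, and Ifit1bl1 (-1.22, SE 0.33, adjusted p = 0.016) was the member higher in CD8+ cells. The classical targets of type I interferon that could be tested, such as Mx1 (-0.66), Rsad2 (-0.23) and Usp18 (1.02), were not called.

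Of 14 tested genes of nutrient transport and metabolism 2 were higher in CD4+ and 3 in CD8+ cells, where 22.7% of all tested genes were called. Gapdh, a glycolytic enzyme, had 21601, 24426 and 23677 in CD4+ cells and 26247, 29127 and 30807 in CD8+ cells (log2 fold change -0.31, SE 0.10, adjusted p = 0.046), a call that DESeq2 and TMM scaling did not make. Acsbg1 (-0.75, SE 0.15, adjusted p = 0.0021) and Hk3 (-1.90, SE 0.36, adjusted p = 0.0016), a hexokinase of myeloid cells, were higher in CD8+ cells, and Slc2a6 (2.16, SE 0.50, adjusted p = 0.0064) and Pdk1 (0.65, SE 0.21, adjusted p = 0.034) in CD4+ cells. None of the 15 mitochondrially encoded genes was called by edgeR or by DESeq2, 0 had an unadjusted p below 0.05, and mt-Co1 had 139180, 169900 and 156290 in CD4+ and 155020, 177010 and 151870 in CD8+ cells (log2 fold change -0.06, SE 0.09, adjusted p = 0.69), with overlapping groups.

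The day 7 differences were set beside those of control cells to show which of them were already there, among listed genes only. Listed genes came mostly from the authors' comparisons of day 7 with day 0 cells within a lineage. Genes with a stable lineage difference were thus less likely to be listed, which bears on the shares below. On day 0, 512 of 3952 tested genes (13.0%) were called between the lineages, 281 (7.11%) higher in CD4+ and 231 (5.85%) higher in CD8+ cells. Of the day 7 calls 209 were also called on day 0, which is 21.7% of the day 7 calls and 40.8% of the day 0 calls. Of these 170 kept their direction, 111 higher in CD4+ and 59 higher in CD8+ cells on both days. The direction was opposite in 39 genes, 20 of which passed from CD4+ to CD8+ cells and 19 from CD8+ to CD4+ cells. The change of the lineage difference between the days was tested as an interaction, which called 469 of 4530 genes (10.4%), 258 (5.70%) toward CD4+ and 211 (4.66%) toward CD8+ cells. The 39 genes that changed direction were all among the interaction calls, and 303 of the 469 were also called on day 7.

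Several lineage genes had another contrast on day 7 than on day 0. Zbtb7b was at 5673 ± 661 in CD4+ and 86.6 ± 39.6 in CD8+ control cells (SD, n = 3), and the difference moved toward CD8+ cells by day 7 (change of log2 fold change -4.84, SE 0.36, adjusted p = 5.8e-07). Itgae was at 113 ± 70.6 and 3562 ± 399 on day 0 (SD, n = 3), and its difference moved toward CD4+ cells (change 5.46, SE 0.51, adjusted p = 2.0e-06). Nkg7 was at 97.2 ± 48.9 and 4535 ± 65.7 on day 0 (SD, n = 3), and it too moved toward CD4+ cells (change 4.57, SE 0.36, adjusted p = 5.8e-07), as did Ctsw (change 2.20, SE 0.20, adjusted p = 1.2e-06). By day 7 Zbtb7b had more counts in CD8+ cells and Nkg7 and Ctsw more in CD4+ cells than on day 0, whereas Itgae had fewer in CD8+ cells. Cd40lg (change -1.67, SE 0.45, adjusted p = 0.024) had a smaller and Cd8a (change -2.86, SE 0.46, adjusted p = 0.0005) a larger difference on day 7 than on day 0. The Cd8a mean was lower on day 7 in both lineages, 13875 against 19748 in CD8+ and 6.43 against 69.4 in CD4+ cells.

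Granzyme genes had a larger lineage difference on day 7 than in control cells. Gzma was at 51.0 ± 23.3 in CD4+ and 72.5 ± 32.2 in CD8+ control cells (SD, n = 3), and the change toward CD8+ cells was called (-3.17, SE 0.43, adjusted p = 9.2e-05). Gzmb (change -1.49, SE 0.32, adjusted p = 0.0057) and Gzmk (change -4.79, SE 0.61, adjusted p = 4.0e-05) changed to the same side. Prf1 was higher in CD8+ cells on day 0 already (log2 fold change -1.46, SE 0.17, adjusted p = 8.9e-06), and its difference widened (change -1.30, SE 0.23, adjusted p = 0.0011). Of 17 cytotoxic effectors 6 changed toward CD8+ cells, Fasl and Rab27a among them, and 4 changed toward CD4+ cells, namely Nkg7, Ctsw, Cst7 and Srgn. Ccl5 was also higher in CD8+ control cells (log2 fold change -3.15, SE 0.25, adjusted p = 1.2e-07), and its difference did not change by a called amount (change 0.04, SE 0.34, adjusted p = 1). On the CD4+ side Tnfsf8 was at 905 ± 98.6 and 976 ± 31.1 on day 0 (SD, n = 3) and its change was called (3.11, SE 0.27, adjusted p = 1.2e-06). Tcf7 (change 1.97, SE 0.20, adjusted p = 3.4e-06), Il6ra (change 2.57, SE 0.26, adjusted p = 3.9e-06), Ccr7 (change 2.42, SE 0.26, adjusted p = 7.2e-06) and Rgs10 (change 2.28, SE 0.29, adjusted p = 3.4e-05) moved toward CD4+ cells, and 15 of 27 naive and memory genes did so against 2 toward CD8+ cells. Tcf7, Il6ra and Ccr7 had lower means on day 7 than on day 0 in both lineages. For Ccr7 the means were 1136 against 8071 in CD4+ cells and 210 against 7996 in CD8+ cells. Csf2, Il1r1, Ccl1 and Cd70 had no counts in any control library, and Ifi204 was at 6.17 ± 2.24 and 12.2 ± 11.9 (SD, n = 3) before its change toward CD4+ cells (4.35, SE 0.72, adjusted p = 0.00062).

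Genes that passed from 1 lineage to the other included inhibitory receptors. Pdcd1 was at 159 ± 43.4 in CD4+ and 11.8 ± 7.89 in CD8+ control cells (SD, n = 3) and its change toward CD8+ cells was called (-4.60, SE 0.40, adjusted p = 1.1e-06). Lag3 was at 127 ± 56.0 and 34.3 ± 10.5 (SD, n = 3) and changed to the same side (-3.14, SE 0.40, adjusted p = 4.0e-05). Of 12 checkpoint genes 6 changed toward CD8+ cells and none toward CD4+ cells. Ptms, which encodes parathymosin (change -3.23, SE 0.26, adjusted p = 5.8e-07), and the metalloprotease gene Adamts14 (change -3.53, SE 0.32, adjusted p = 1.5e-06) did so too. Ccr9, the small intestine homing receptor of naive CD8+ cells, was at 161 ± 73.7 and 2550.4 ± 75.4 on day 0 (SD, n = 3) and passed to the CD4+ side (change 4.96, SE 0.40, adjusted p = 5.8e-07). Ly6c1 passed from CD4+ to CD8+ cells (change -3.53, SE 0.38, adjusted p = 7.2e-06), while Ly6c2 stayed higher in CD8+ cells with a smaller difference (change 2.44, SE 0.36, adjusted p = 0.00018). The cell cycle list had 2 members higher in each lineage on day 0 among 69 tested, and 3 of 70 changed toward CD4+ and 4 toward CD8+ cells, where 10.4% of all genes tested had a called change. Casp1 and Casp4 were not called in the interaction.

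**Figure D5:**
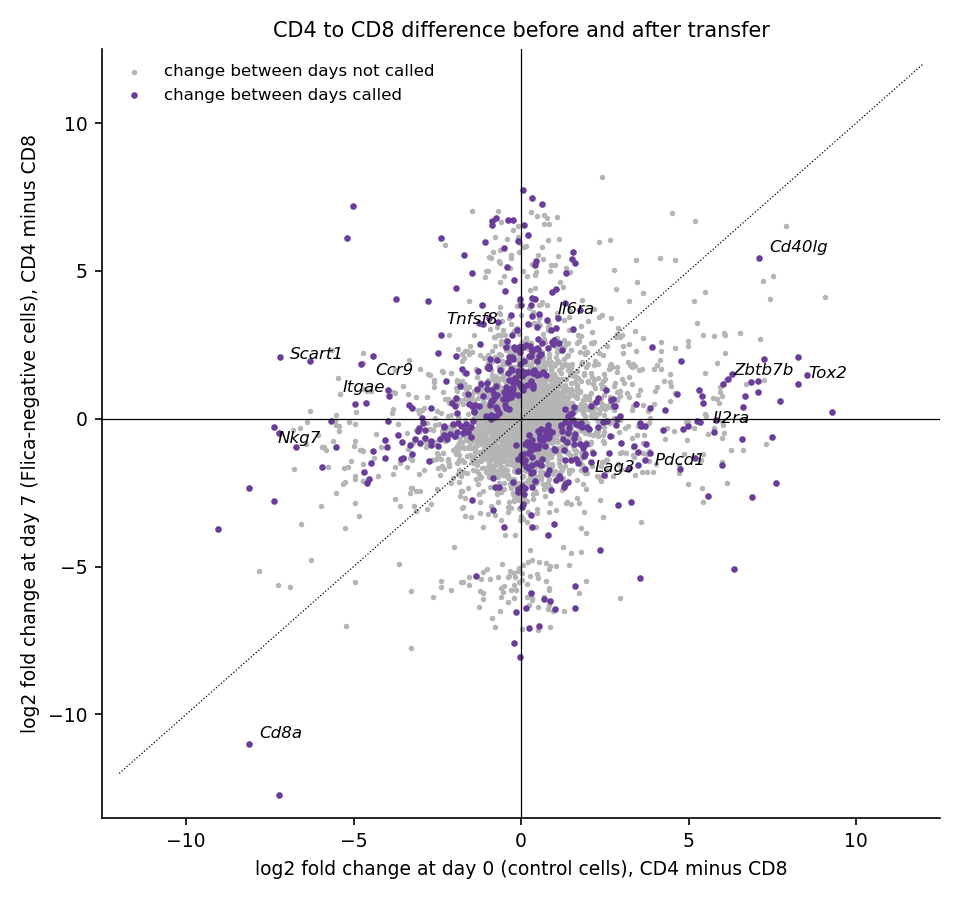
Log2 fold change (CD4 minus CD8) in Flica-negative cells on day 7 against that in control cells on day 0, for genes tested on both days, with the line of equal difference dotted. Purple points are genes whose change between the days was called, and Pdcd1, Lag3, Zbtb7b, Nkg7 and Ccr9 lie away from the dotted line.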

How the data were processed

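RNA of sorted mouse T cells was captured with oligo-dT and sequenced as paired ends, in 15 libraries of 5 groups. Groups and replicate numbers follow the titles in the labels, and nothing was left unmapped. The submitters' processing notes name STAR 2.7.1a, DESeq2 and the build GRCm38. The counting tool, its strand setting and the annotation are not given in the sources used here. The authors deposited 4 gene tables, each with raw counts of all 15 libraries and, as the deposited signal of a gene, its mean over these libraries after division by size factors. A gene is in a table where 1 of the authors' comparisons gave it an adjusted p below 0.05 and a log2 fold change beyond 2 in size, so the genes had been selected on these libraries and every p-value below covers listed genes only. The authors' own fold changes, standard errors, Wald statistics and p-values, and 4 tables of enriched terms, were not used.

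The union of the tables by gene identifier held 4567 genes, 4423 with a symbol. Size factors were solved from the counts and the deposited means (largest relative error 5.8e-15), and counts were divided by them for display. Counts were tested with edgeR 4.0.16 (quasi-likelihood test, these size factors as offsets, Benjamini-Hochberg adjustment over all genes tested) in R 4.3.3 with limma 3.58.1, for genes with at least 10 counts over the libraries of the fit. Day 7 and day 0 were fitted on 6 libraries each, and the change between days as the interaction term over 12 libraries. A group with no count above 3 in any library was taken as at a floor of 3 counts per library (2.74 normalised counts in CD4+ and 2.84 in CD8+ libraries), which covers counting error only. Library depth is unknown, since the tables hold selected genes. The tests were checked on counts simulated from these libraries.

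The comparison, its gene lists (19 of biology and 14 of cell type markers) and its tests were chosen with earlier results of these data known. Genes were named by rule: the 12 with the largest fold change in each direction among called genes with a symbol, a mean of at least 100 and no overlap of the groups; in each biology list up to 5 called genes per direction by fold change, or up to 2 by mean where fewer than 2 were called; 11 caspase and inflammasome genes of interest to the study; and the 8 called genes with a mean of at least 100 and the smallest interaction p that were also called on day 7. This gave 131 genes, a few of which are not reported here, although counts over lists include them. Other members of the lists are named as members called, not called or not analysed, a few with their values, after these were seen. No 2 libraries agreed within sampling noise (chi-square per degree of freedom 12.19 to 33.87), and correlations across genes within groups were 0.922 to 0.957. Alternatives were DESeq2 1.42.0, other size factors, other filters, stricter thresholds, replicate blocks and leaving out each library. Promoter windows and gene positions are from RefSeq (GRCm38.p6). Python 3.11.15 (pandas 2.3.3, numpy 2.4.6, matplotlib 3.10.9) served for tables and plots.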

Additional observations from a re-analysis of the deposited data

Results flagged for a closer look

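A change of the CD4 to CD8 difference between day 0 and day 7 was called by the interaction term in 58 of the named genes reported here. Values are the change of the log2 fold change, positive where the difference moved toward CD4+ cells. A move toward a lineage need not be a rise in it. St8sia1, which moved toward CD4+ cells, had a mean of 3753 on day 0 and 621 on day 7 in them. Gm44175, which moved toward CD8+ cells, had a mean of 1735 on day 0 and 793 on day 7 in them. Where a group was at or near 0 counts on day 0, the size depends on the prior count of the fit and is no bound.

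Toward CD4+ cells the cytotoxic and CD8-associated genes Itgae changed by 5.46, Ccr9 by 4.96, Nkg7 by 4.57, Ly6c2 by 2.44, Ctsw by 2.20 and Wdr95 by 5.33. Naive, memory and homing genes moved to the same side, St8sia1 by 3.34, Igfbp4 by 1.90, Tcf7 by 1.97, Rgs10 by 2.28, Nsg2 by 2.20, Ccr7 by 2.42, Cxcr5 by 2.37 and Gpr15 by 6.77. Cytokine and receptor genes did so too, Tnfsf8 by 3.11, Lta by 2.08, Il6ra by 2.57, Il9r by 3.89, Tgfbr3 by 1.50, Ifngr2 by 1.58, Ramp3 by 2.61 and Gpr83 by 4.10. The regulators Egr3 and Ahr changed by 2.35 and 2.04, the interferon-inducible genes Ifi204, Tgtp1 and Iigp1 by 4.35, 1.50 and 1.45, and A630023P12Rik, Gm10499, Ccnd2 and Srgn by 3.63, 4.75, 1.06 and 0.88.

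Toward CD8+ cells the CD4-associated genes Zbtb7b changed by -4.84, Ccr8 by -5.23, Cd200r1 by -2.82, Maf by -1.46 and Cd40lg by -1.67. Inhibitory and effector genes moved to the same side, Pdcd1 by -4.60, Lag3 by -3.14, Cd244a by -4.01, Gzma by -3.17, Gzmb by -1.49, Gzmk by -4.79, Prf1 by -1.30, Adgrg1 by -6.80 and Cx3cr1 by -3.30. The regulators Zbtb32, Prdm1 and Irf8 changed by -3.18, -2.17 and -1.21. Cd8a changed by -2.86, Gm44175 by -5.48, Epha3 by -7.79, Adamts14 by -3.53, Ptms by -3.23, Ly6c1 by -3.53, Itgam by -3.76, Cd24a by -1.87, Il3ra by -1.24 and Csf2rb by -2.52. The summed neutrophil markers were also higher in CD8+ cells on day 7, and their part in the values of Itgam and Csf2rb was not tested.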

How the results depend on the processing

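For the day 7 comparison 964 genes were called. The number was 545 at an adjusted p below 0.01, 1138 with DESeq2, 982 with TMM scaling, 987 with other size factors, 1017 without a filter, 975 of 3191 with a mean of at least 10, 907 of 2881 on genes of the Flica-negative tables, 664 with all 15 libraries in 1 fit and 609 to 939 when 1 library was left out. No gene called both in the main test and under an alternative had opposite directions in them. The lowest of the counts with 1 library left out came without CD4+ replicate 2, and the cause was not tested. The interaction had 469 calls, 700 with DESeq2, 285 with TMM scaling, 245 at an adjusted p below 0.01 and 349 to 490 with 1 library left out, and day 0 had 512 and 390 to 465. The labels do not say whether CD4+ and CD8+ libraries of the same replicate number share a pool, and the main tests did not pair them. Deviations of same-numbered CD4+ and CD8+ libraries correlated by 0.183, 0.0536 and 0.226 on day 7 (2563 genes) and by 0.145, 0.0783 and 0.0142 on day 0 (2526 genes). Each of the 6 libraries of either day correlated best with its own number, a hint of pairing from the data only. With a replicate block the counts were 1272 on day 7, 645 on day 0 and 566 for the interaction. Of the 120 named and called genes, 100 kept their call under each of the 12 or 13 alternatives that tested them, and Mefv was called without CD4+ replicate 2. These alternatives leave out the stricter thresholds and the fit of all 15 libraries. Calls were lost under at least 1 of these alternatives for St8sia6, Klrh1, Penk, Csf3r, Il3ra, Cxcr2, Cd80, Cd70, Ifit1bl1, Tgtp1, Cd63, Itga9, Cd81, Exo1, E2f7, Brca1, Gapdh, Pdk1, Ccr9 and Ptms. By the simulation, genes with low counts and differences near 2-fold were often missed, most of all by the interaction, so a gene that was not called may still differ.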
